A study of Homo sapiens with 8 samples.

Results

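The response of AsPC-1 cells to a low dose of trametinib was described here. AsPC-1 is an established human pancreatic ductal adenocarcinoma line that was derived from ascites and grows as an epithelium, and trametinib is an inhibitor of the kinases MEK1 and MEK2. Of the 62649 genes in the table, 6710 carried a RefSeq mRNA (NM_) entry and a mean of at least 10 TPM over the 4 AsPC-1 libraries, where TPM is a transcript abundance scaled for gene length and for the total of the library. Trametinib was given alone or on top of roseoflavin, so each gene had 2 changes on the log2(TPM + 1) scale: trametinib minus vehicle, and trametinib with roseoflavin minus roseoflavin. Genes that moved the same way in both were kept, which left 4124 genes, 2894 higher and 1230 lower with trametinib. The other 2586 genes went in opposite directions or had a change of 0 in a pair. These counts follow from the choice of genes and were not tested.

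The study held 8 libraries, 1 for each of 4 treatments in AsPC-1 and in a second pancreatic cancer line, PANC-1. Cells were kept for 3 days in methylcellulose medium, in which they do not attach to the dish, and then received vehicle, roseoflavin at 10 µM, trametinib at 1 nM, or both compounds at these doses, for 24 h. Roseoflavin is an antibiotic that resembles riboflavin. No condition was repeated, so no SD between replicates exists, and each line stands for itself only. The 4 AsPC-1 libraries were compared as 2 with trametinib against 2 without it, and the 4 PANC-1 libraries, which the choice of genes did not use, were compared in the same way.

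MEK1 and MEK2 phosphorylate the kinases ERK1 and ERK2 at the end of the cascade that RAS and RAF start. Active ERK drives a fast group of transcription factors, such as EGR1 and FOS, and at the same time induces its own brakes, the DUSP phosphatases and the Sprouty proteins, so the RNA of these genes is widely read as a gauge of ERK output. Pancreatic ductal adenocarcinomas are often sorted into a classical state, with mucins, trefoil factors and transcription factors of the foregut, and a basal-like state, with squamous keratins and adhesion genes.

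Each library summed to the same total of TPM, so the depth behind the values is unknown and no counting interval can be given. The 37 genes of the mitochondrial genome took 41.2% of the TPM in the vehicle library of AsPC-1, 44.1% with roseoflavin, 42.2% with trametinib and 41.3% with both compounds, and from 22.8% to 25.6% in PANC-1. The label AsPC-1 was checked with epithelial markers: EPCAM stood at 1224 to 1485 TPM, KRT19 at 1981 to 2323 TPM and CEACAM6 at 1775 to 2104 TPM in its 4 libraries. PANC-1 had at most 16.8 TPM of EPCAM and 0.097 TPM of CEACAM6, but 943 to 1032 TPM of KRT19. VIM, a mesenchymal intermediate filament, was also present in AsPC-1 at 660 to 816 TPM, and CDH2 was listed at 0. Markers of other cell types were near 0 in AsPC-1 with a pair of exceptions, the fibroblast marker LUM at 103 to 146 TPM and the macrophage marker CD68 at 108 to 114 TPM. The other 4 fibroblast markers summed to 1.54 to 1.83 TPM, the other 4 immune markers to at most 0.081 TPM and the 5 endothelial markers to at most 0.096 TPM. In bulk RNA, fewer cells of a kind and less RNA per cell cannot be told apart.

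With limma and Benjamini-Hochberg adjustment over all 6710 genes, 263 were called higher (3.92% of the genes tested) and 107 lower (1.59%), 370 in all (5.51%), at an adjusted p under 0.05. The changes were small: genes called higher differed by 0.24 to 0.97 on the log2 scale, with a median of 0.30, and those called lower by 0.25 to 0.81, with a median of 0.32. Only 11 of the higher and 8 of the lower calls reached 0.5, and none reached 1. All 370 moved the same way in both pairs, as did 4124 of all 6710 genes. A call rests on the mean of the 2 changes, so this is no separate support for it. Both trametinib libraries lay above both others for 258 of the 263 higher calls, against 2214 of all 6710 genes (33.0%), and below both others for 98 of the 107 lower calls, against 800 of all genes (11.9%).

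These calls rest on a spread that limma shares among all genes, because 4 libraries leave 1 residual degree of freedom and the estimated prior degrees of freedom were infinite, so a gene's own disagreement between pairs hardly enters its p. When the fit took in all 19122 genes that reached 1 TPM in 2 libraries or more, with or without an NM_ entry, limma called 0 genes (1054 higher and 615 lower at an unadjusted p under 0.05), and without a term for roseoflavin it called 12 higher and 5 lower. Leaving out a library reduces the estimate to the change of the other pair, and in a fit to the remaining 7 libraries at most 1 call was left, PHGR1. The fit to all 8 libraries called 267 higher and 82 lower, with 211 of the 263 and 73 of the 107 calls among them. The level filter also matters for genes near it: 13 of the higher calls, PHGR1, CXCL5 and TP53I11 among them, averaged under 10 TPM without trametinib and were tested only because of their level with it, and 5 of the lower calls, S100A2 among them, averaged under 10 TPM with trametinib. All of these were also called among genes averaging 1 TPM or more.

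Genes moved further from one another in the pair without roseoflavin, with an SD over genes of 0.17, than in the pair with it, 0.13. The median change was 0.0065 in the first pair and 0.064 in the second, and 51.5% and 73.3% of the genes were higher with trametinib. Across the 6710 genes the changes of the 2 pairs, which share no library, had a Pearson r of 0.46, and the changes of the 2 PANC-1 pairs one of 0.069; over the 5906 genes with at least 10 TPM in both lines these were 0.41 and 0.13. Genes are not independent replicates, so no p is given. The change without roseoflavin also followed the base composition of the transcripts, with r = -0.55 against GC content over 6696 genes, and the change with roseoflavin did so far less, with r = -0.050. The median GC content was 43.9% for genes called higher, 58.0% for those called lower and 50.3% for all. With a straight line on GC content and log10 transcript length removed from each pair change, r between the pairs was 0.53. In a separate correction, a fitted GC and length trend was removed from each library before the fit. After it, 234 of the 263 higher and all 107 lower calls were called again, among 478 higher and 433 lower. The share of calls that were higher was 71.1% as deposited, 52.5% after this correction, 51.3% after quantile normalization and 61.3% after rescaling without mitochondrial genes, so the balance between higher and lower calls depends on the scaling.

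**Figure D1:**
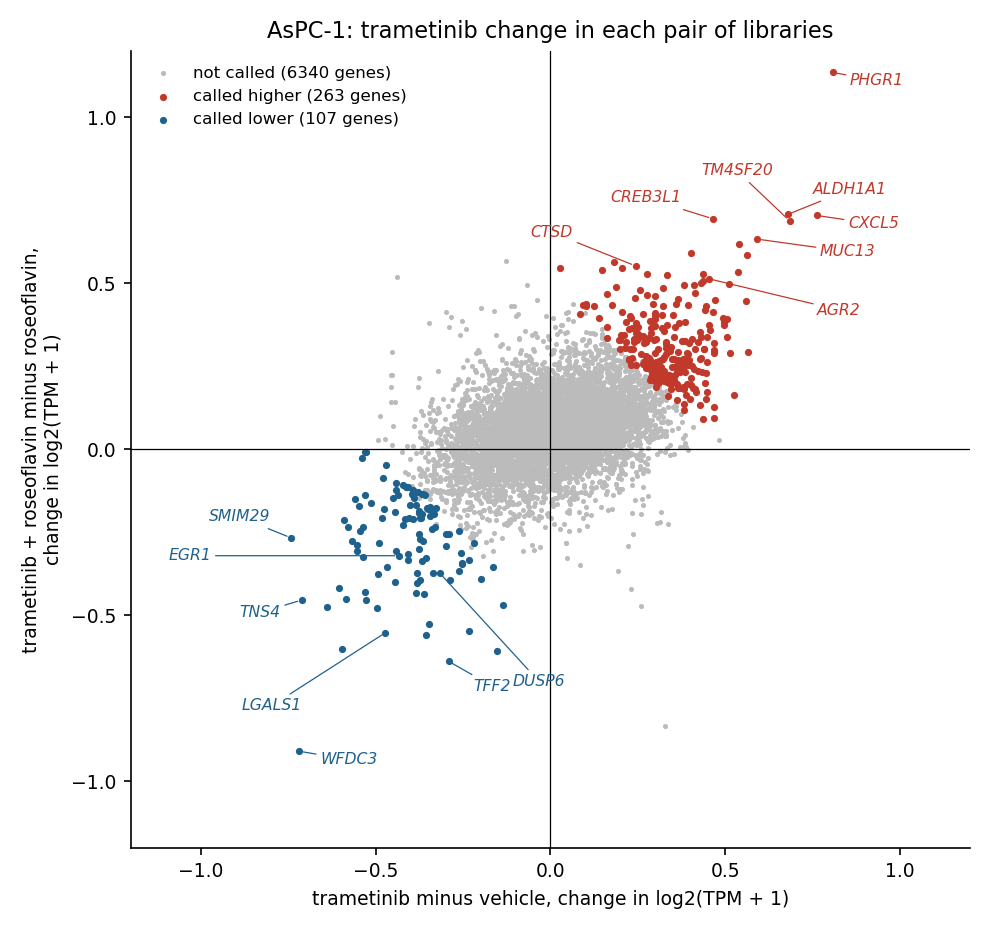
Change in log2(TPM + 1) with 1 nM trametinib for 6710 AsPC-1 genes, without roseoflavin on the horizontal axis and with it on the vertical axis. Each point is a gene, red where limma called it higher (263 genes), blue where it called it lower (107 genes) and grey otherwise, and the called genes fill the upper right and lower left corners, with PHGR1 and WFDC3 farthest out.

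Among the brakes of the pathway, 2 genes fell. DUSP6, the phosphatase that removes the activating phosphates from ERK, lies on chromosome 12 from 89347232 to 89353271 on the minus strand of GRCh38. It stood at 193 TPM with vehicle, 176 TPM with roseoflavin, 154 TPM with trametinib and 136 TPM with both compounds. Both trametinib libraries were thus below both others, and DUSP6 fell by 0.34 on the log2 scale (SE 0.081, limma adjusted p = 0.00155). SPRY4, a Sprouty protein that dampens receptor signalling to RAS, was at 23.5 TPM with vehicle, 25.3 TPM with roseoflavin, 17.9 TPM with trametinib and 20.4 TPM with both, again without overlap, and fell by 0.34 (SE 0.085, limma adjusted p = 0.00376). These were the 2 calls among the 8 tested feedback inhibitors, of which 4 were lower and 2 higher in both pairs. The other members changed little: DUSP4 by -0.11, DUSP7 by -0.12 and SPRY2 by -0.06, while SPRED1, which recruits the RAS inhibitor NF1, was at 10.7 and 9.69 TPM without trametinib and 12.5 and 11.8 TPM with it (0.23, limma adjusted p = 0.11). The median of the list was -0.09, against 0.04 for all genes tested. Counts of genes that moved the same way in both pairs are to be read against all 6710 genes. Of these, 43.1% were higher and 18.3% lower in both pairs, or 31.9% and 31.7% after quantile normalization. Counts of calls in a list are likewise to be read against the 3.92% of all genes called higher and the 1.59% called lower.

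Of 16 tested transcription factors and other early response genes that ERK induces, EGR1 and IER3 were called, both lower. Lower calls made up 1.59% of all genes. EGR1, a zinc finger factor made within minutes of ERK activation, lies on chromosome 5 from 138465490 to 138469315. It had 42.2 TPM with vehicle, 36.9 TPM with roseoflavin, 31.0 TPM with trametinib and 29.3 TPM with both. The trametinib libraries were the 2 lowest, a fall of 0.38 (SE 0.083, limma adjusted p = 0.000428). IER3, an early response gene linked to survival, went from 470 and 455 TPM to 360 and 351 TPM, a fall of 0.38 (SE 0.086, limma adjusted p = 0.000808). FOS had 54.8 TPM with vehicle, 34.0 TPM with roseoflavin, 45.3 TPM with trametinib and 29.9 TPM with both, and its mean change of -0.23 did not pass (limma adjusted p = 0.08). MYC had -0.18 and FOSL1 -0.16. The ETS factors ETV4 and ETV5, often used as readouts of ERK, changed by 0.02 and -0.04, with ETV4 between 43.2 and 44.6 TPM in all 4 libraries. The list had 7 genes lower and 3 higher in both pairs and a median of -0.03.

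The promoters of a gene that fell and of one that rose are shown. They were picked because they hold a motif, so they do not stand for the genes that fell or rose. The 250 bases before the RefSeq start of EGR1, at chr5:138465229-138465478 on the plus strand of GRCh38.p14, hold a pair of CArG boxes, the serum response element that binds SRF together with ERK-activated ETS partners. They are in capitals, starting 105 and 83 bases before the start. The 250 bases before the RefSeq start of MUC13, at chr3:124934752-124935001 on the minus strand, hold an AP-1 site of the form TGANTCA. It is in capitals, 178 bases before that start. This window lies within the GENCODE span of the gene, which runs to 124953819.
EGR1: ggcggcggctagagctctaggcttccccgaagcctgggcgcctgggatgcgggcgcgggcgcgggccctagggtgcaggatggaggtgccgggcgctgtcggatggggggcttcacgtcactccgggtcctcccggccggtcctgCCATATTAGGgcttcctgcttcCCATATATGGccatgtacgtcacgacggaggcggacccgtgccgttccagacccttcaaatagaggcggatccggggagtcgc
MUC13: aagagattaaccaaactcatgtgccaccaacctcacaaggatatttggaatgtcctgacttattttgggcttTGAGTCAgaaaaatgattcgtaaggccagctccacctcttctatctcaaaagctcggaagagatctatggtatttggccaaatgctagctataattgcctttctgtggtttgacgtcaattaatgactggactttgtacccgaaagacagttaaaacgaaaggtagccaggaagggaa
Both strands were searched. The CArG box was found in 1.16% of 35116 RefSeq promoters of this length, the AP-1 site in 6.57% and the ETS core CCGGAAGT in 3.42%. Among the 5497 tested genes with a promoter in the table, the CArG box was in 1.06%, the AP-1 site in 3.4% and the ETS core in 8.88%. The CArG box was in 2 of 75 matched promoters of genes called lower (2.67%) and in 2 of 202 of genes called higher (0.99%). The corresponding shares were 5.33% and 3.47% for the AP-1 site and 6.67% and 3.96% for the ETS core. The AP-1 site was thus in a larger share of genes called lower than of genes called higher. Each of these shares of called genes rests on 8 genes or fewer. The windows before the RefSeq starts of DUSP6 and AGR2 held none of the 3 motifs.

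Surface and secreted products of ERK signalling held calls in both directions. DKK1, a secreted antagonist of Wnt signalling, had 183 TPM with vehicle, 230 TPM with roseoflavin, 134 TPM with trametinib and 174 TPM with both. It fell by 0.42 (SE 0.082, limma adjusted p = 4.068e-05), with both trametinib libraries below both others. PHLDA1, a small pleckstrin homology protein induced by growth factors, went from 122 and 123 TPM to 93.5 and 90.8 TPM, and the neuropeptide precursor VGF from 23.5 and 23.1 TPM to 16.5 and 19.9 TPM, a change of -0.48 without and -0.21 with roseoflavin. In the opposite direction, MMP14, a matrix protease of the cell surface, rose from 60.1 and 54.5 TPM to 71.9 and 69.3 TPM (0.30, limma adjusted p = 0.00935). The EGF receptor ligands AREG, EREG and TGFA were higher in both pairs, by 0.18, 0.14 and 0.17, and did not pass. CCND1, which encodes cyclin D1, changed by 0.03. In all, 6 of the 14 tested genes were higher and 5 lower in both pairs, with 1 called higher and 3 lower. The shares of all genes called were 3.92% higher and 1.59% lower.

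Among genes of the RAS to ERK cascade itself, NRAS was at 31.2 and 34.7 TPM without and 40.2 and 38.1 TPM with trametinib and did not pass (0.25, limma adjusted p = 0.051). The drug's own targets, MAP2K1 and MAP2K2, had changes of 0.01 and 0.02. None of 10 receptor tyrosine kinases was called; MST1R had the lowest change, -0.21, and EGFR and MET had -0.06 and -0.01.

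The largest rise among the calls was that of PHGR1. This small protein rich in proline, histidine and glycine of the gut epithelium, on chromosome 15 from 40351033 to 40356434, had 7.25 TPM with vehicle and 5.99 TPM with roseoflavin, and 13.5 TPM with trametinib and 14.3 TPM with both. It rose by 0.97 (SE 0.089, limma adjusted p = 1.416e-23), and it passed the level filter only through the trametinib libraries. MUC13, a membrane mucin of the gut, lies on chromosome 3 from 124905442 to 124953819. It was at 220 and 215 TPM without trametinib and at 333 and 334 TPM with it, close together within each group, and rose by 0.61 (SE 0.083, limma adjusted p = 2.352e-10). AGR2, a disulfide isomerase that folds mucins in the endoplasmic reticulum, lies on chromosome 7 from 16791811 to 16833433 and went from 163 and 148 TPM to 224 and 212 TPM, a rise of 0.48 (SE 0.082, limma adjusted p = 1.381e-06). The groups of libraries did not overlap for any of the 3.

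Of 9 other genes with large rises, all but PAPSS2 rose more than AGR2 and 3 more than MUC13. The neutrophil chemokine CXCL5 went from 8.36 and 7.84 TPM to 14.9 and 13.4 TPM (0.73), under 10 TPM without trametinib, and ALDH1A1, which makes retinoic acid, from 33.8 and 31.6 TPM to 54.6 and 52.2 TPM (0.69). The tetraspanin-like TM4SF20 went from 11.6 and 12.2 TPM to 19.3 and 20.2 TPM (0.69), and its relative TM4SF4 from 209 and 202 TPM to 309 and 304 TPM. CREB3L1, a transcription factor that is cleaved from the endoplasmic reticulum membrane, went from 35.6 and 29.9 TPM to 49.5 and 49.0 TPM. RARRES1, a retinoid-induced membrane protein, TP53I11, the protease TMPRSS2 and the sulfate donor synthase PAPSS2 rose by 0.53, 0.58, 0.50 and 0.46. TP53I11 had 8.72 and 6.99 TPM without and 13.1 and 11.3 TPM with trametinib, so it too passed the level filter only through the trametinib libraries. All of these had both trametinib libraries above both others. Exons of RARRES1 and TP53I11 overlap genes of the other strand (MFSD1 and TSPAN18), and how shared reads were counted is not given in the sources used here.

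**Figure D2:**
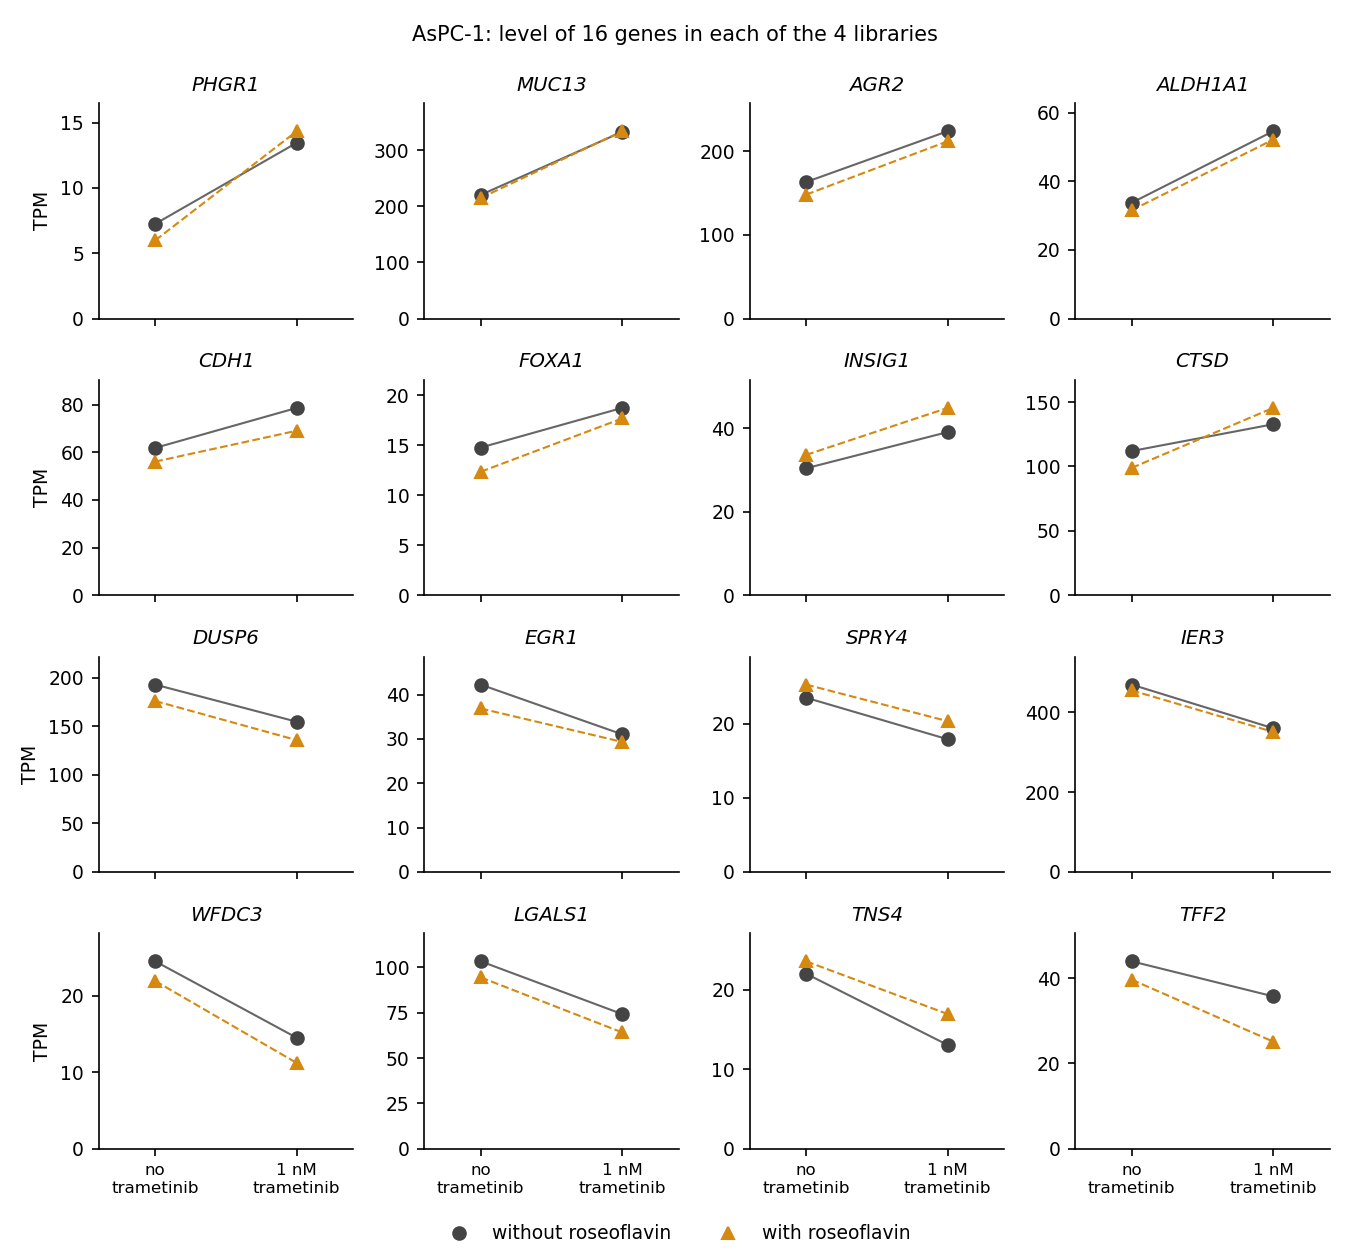
TPM of 16 genes in each of the 4 AsPC-1 libraries, without and with 1 nM trametinib, on linear axes that start at 0. Each point is a single library, circles and solid lines without roseoflavin and triangles and dashed lines with it. The slope has the same sign for both lines in every panel because only such genes were kept.

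Mucins and mucosal products were mostly higher with trametinib. Of 7 tested mucins and secretory genes, 6 were higher and 0 lower in both pairs. MUC13, MUC1 and CEACAM5 were called higher, against 3.92% of all genes. MUC1, the membrane mucin behind the CA15-3 antigen, had 217 TPM with vehicle, 169 TPM with roseoflavin, 267 TPM with trametinib and 218 TPM with both (0.34, SE 0.082, limma adjusted p = 0.00265). The vehicle library and the library with both compounds were close, but the groups did not overlap. CEACAM5, the carcinoembryonic antigen, rose from 525 and 528 TPM to 660 and 657 TPM (0.32, limma adjusted p = 0.00935); its near copy CEACAM6 had 0.22 and did not pass, and reads common to such copies may be counted for either. MUC17 had 0.23 and the core 2 enzyme GCNT3 0.20. The median of the list was 0.23, against 0.04 for all genes tested.

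A list of foregut and other epithelial transcription factors, with intestinal CDX2 among them, had 12 tested genes. In both pairs 10 were higher and 0 lower, and 4 were called higher, against 3.92% of all genes. FOXA1, a pioneer factor of endoderm, went from 14.8 and 12.3 TPM to 18.7 and 17.7 TPM, a rise of 0.40 (SE 0.087, limma adjusted p = 0.000316). HNF4G rose by 0.36, or by 0.23 after the GC and length correction, and CDX2, the master factor of intestinal identity, by 0.33. KLF4 was called at 0.27, with 40.1 TPM with vehicle and 40.4 TPM with both compounds, so its groups nearly touched, and its change was 0.14 without and 0.40 with roseoflavin; it did not pass in the fit to all 8 libraries (adjusted p = 0.0676). GATA6, a factor tied to the classical state, had 20.1 and 19.6 TPM without and 24.2 and 21.4 TPM with trametinib and did not pass (0.18, limma adjusted p = 0.22). HNF4A had 0.07.

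Of 17 tested genes of epithelial junctions and keratins, 15 were higher and 0 lower in both pairs (88.2% higher, against 43.1% of all genes). Of the 17, 5 were called higher, against 3.92% of all genes. After quantile normalization 15 were higher and 1 lower. CDH1, the E-cadherin of adherens junctions, went from 61.9 and 56.1 TPM to 78.7 and 69.1 TPM, a rise of 0.32 (SE 0.081, limma adjusted p = 0.004). The tight junction genes OCLN, CLDN1, CLDN3 and TJP3 rose by 0.41, 0.30, 0.27 and 0.27. CLDN3 gained 0.10 without roseoflavin and 0.43 with it. CLDN3 and TJP3 did not pass in the fit to all 8 libraries (adjusted p = 0.0654 and 0.107). EPCAM had 0.25 (limma adjusted p = 0.11), and the keratins KRT8, KRT18 and KRT19 had 0.13, 0.03 and 0.14. Of the mesenchymal genes only 3 were tested, and none was called; VIM had 816 and 765 TPM without and 732 and 660 TPM with trametinib (-0.18, limma adjusted p = 0.25). LUM, the fibroblast marker present in AsPC-1, rose by 0.44 (limma adjusted p = 1.13e-05) while the other 4 fibroblast markers stayed near 0, and CD68 had 0.05.

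The lists that mark the tumour states were mixed. Of the 11 tested classical genes, 8 were higher and 2 lower in both pairs, and AGR2 was called higher. TFF2 and TFF3, trefoil peptides secreted with mucus that sit side by side on chromosome 21, were called lower. TFF2 had 44.0 TPM with vehicle, 39.6 TPM with roseoflavin, 35.7 TPM with trametinib and 25.1 TPM with both, a fall of 0.46 (SE 0.082, limma adjusted p = 4.748e-06) that was 0.29 without and 0.64 with roseoflavin. TFF3 had 41.4, 30.5, 32.5 and 23.3 TPM in the same order, so the vehicle and trametinib libraries were above their partners with roseoflavin and the groups overlapped. TFF3 did not pass when all 8 libraries were fitted together (adjusted p = 0.341). TSPAN8 and LGALS4 had 0.25 each and did not pass. Of the 7 tested basal-like genes, 3 were higher and 4 lower in both pairs. TNS4, S100A2 and SLC2A1 were called lower, against 1.59% of all genes. S100A2 had a change of -0.51 without and -0.16 with roseoflavin and did not pass in the fit to all 8 libraries (adjusted p = 0.0538). TNS4, a focal adhesion protein, went from 22.0 and 23.6 TPM to 13.0 and 16.9 TPM, a fall of 0.58 (SE 0.086, limma adjusted p = 8.013e-09), while FGFBP1 and DHRS9, of the same list, had 0.24 and 0.22.

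The largest falls were in genes of varied function. WFDC3, a protease inhibitor with a whey acidic protein domain on chromosome 20 from 45747944 to 45791932, had 24.5 TPM with vehicle, 22.0 TPM with roseoflavin, 14.5 TPM with trametinib and 11.2 TPM with both. It fell by 0.81 (SE 0.086, limma adjusted p = 1.631e-17), the largest fall among the calls. LGALS1, which encodes the secreted lectin galectin-1, went from 103 and 94.5 TPM to 74.2 and 64.1 TPM, a fall of 0.51 (SE 0.081, limma adjusted p = 1.034e-07). GCAT, which cleaves a threonine product in mitochondria and lies within 200 kb of LGALS1 on chromosome 22, had 40.7 and 37.6 TPM without and 25.8 and 26.7 TPM with trametinib.

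The other genes of largest fall were the neurotensin receptor NTSR1, from 152 and 157 TPM to 101 and 114 TPM, the hyaluronan synthase HAS3, the sheddase ADAM19, the RNA-binding CAPRIN2, C6orf141 and SMIM29. Their falls ran from 0.48 to 0.52, and both trametinib libraries were below both others for each. SMIM29 lost 0.74 without roseoflavin and 0.27 with it, the least even of these.

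As deposited, genes of growth and division held calls on the lower side only, with 1.59% of all genes called lower. Of 20 tested S phase genes, 14 were lower and 2 higher in both pairs, with a median of -0.09, but CDC45, a helicase factor of replication forks, was the only call, at 14.7 and 13.5 TPM without and 9.56 and 11.0 TPM with trametinib (-0.42, limma adjusted p = 0.000195; -0.57 in the pair without and -0.28 in the pair with roseoflavin). The MCM helicase subunits MCM2, MCM3, MCM5 and MCM7 had -0.17, -0.18, -0.21 and -0.19 without passing. Of 23 mitosis genes 7 were higher, 5 lower and 11 mixed, and none was called; MKI67 was between 43.2 and 45.2 TPM in all 4 libraries. The median of the mitosis list, 0.02, changed sign under 3 other scalings. Among 9 genes of G1 control none was called, with the CDK inhibitor CDKN1B at 0.24 and E2F1 at -0.23. Ribosome biogenesis genes had 12 of 23 lower and 2 higher in both pairs, and RRP9 and BOP1 were called lower, with changes of -0.25 each; BOP1 had -0.36 without and -0.14 with roseoflavin and did not pass when all 8 libraries were fitted (adjusted p = 0.053). The median of this list was -0.18 without roseoflavin and -0.01 with it, against 0.0065 and 0.064 for all genes. Lower in both pairs were 15 of its 23 genes after quantile normalization (65.2%) and 18 after the GC and length correction (78.3%). The shares of all genes were 31.7% and 32.6%. The GC and length correction also gave lower calls for 8 S phase, 2 mitosis, 3 G1 and 7 ribosome biogenesis genes, against 433 of all 6710. It called 1 G1 gene higher.

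Among metabolic lists, glycolysis had 11 of 18 genes lower and 0 higher in both pairs, with a median of -0.09. ENO2, the neuronal enolase, was the only call, at 20.2 TPM with vehicle, 11.6 TPM with roseoflavin, 15.6 TPM with trametinib and 7.58 TPM with both, so both libraries with roseoflavin were below both without it and the groups overlapped. GAPDH, PGK1 and LDHA had -0.06, -0.05 and -0.15. Sterol synthesis had 12 of 20 genes higher and 3 lower in both pairs with a median of 0.14. INSIG1, the sterol sensor that retains SREBP, rose from 30.4 and 33.6 TPM to 39.1 and 44.9 TPM (0.38, SE 0.082, limma adjusted p = 0.000379) and IDI1 rose by 0.26, or by 0.17 after the GC and length correction, a call that quantile normalization ended (adjusted p = 0.063). The squalene and lanosterol enzymes SQLE, CYP51A1 and MSMO1 had 0.23 each and did not pass. The median change of this list in PANC-1 was 0.04.

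The lysosome list had 15 of 21 genes higher (71.4%, against 43.1% of all genes) and 1 lower in both pairs, or 12 and 2 after quantile normalization. Its 1 call, a share near the 3.92% of all genes called higher, was CTSD, an aspartyl protease of the lysosome (0.40, limma adjusted p = 0.000112). CTSD had 112 TPM with vehicle, 98.9 TPM with roseoflavin, 133 TPM with trametinib and 146 TPM with both, a change of 0.24 without and 0.55 with roseoflavin. The list of MHC class I and interferon genes had 12 of 16 higher and 2 lower in both pairs, with a median of 0.16. IFIT3 went from 13.3 and 12.8 TPM to 18.2 and 16.3 TPM, a rise of 0.37 (SE 0.087, limma adjusted p = 0.00131), and IFIT2 rose by 0.29. HLA-B, HLA-C and PSMB9 had 0.21, 0.20 and 0.23 without passing, and ISG15 had -0.17. IFIT2 has exons that overlap LIPA on the other strand, so their reads may not be separate. The ATF4 stress targets had none of 16 called.

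**Figure D3:**
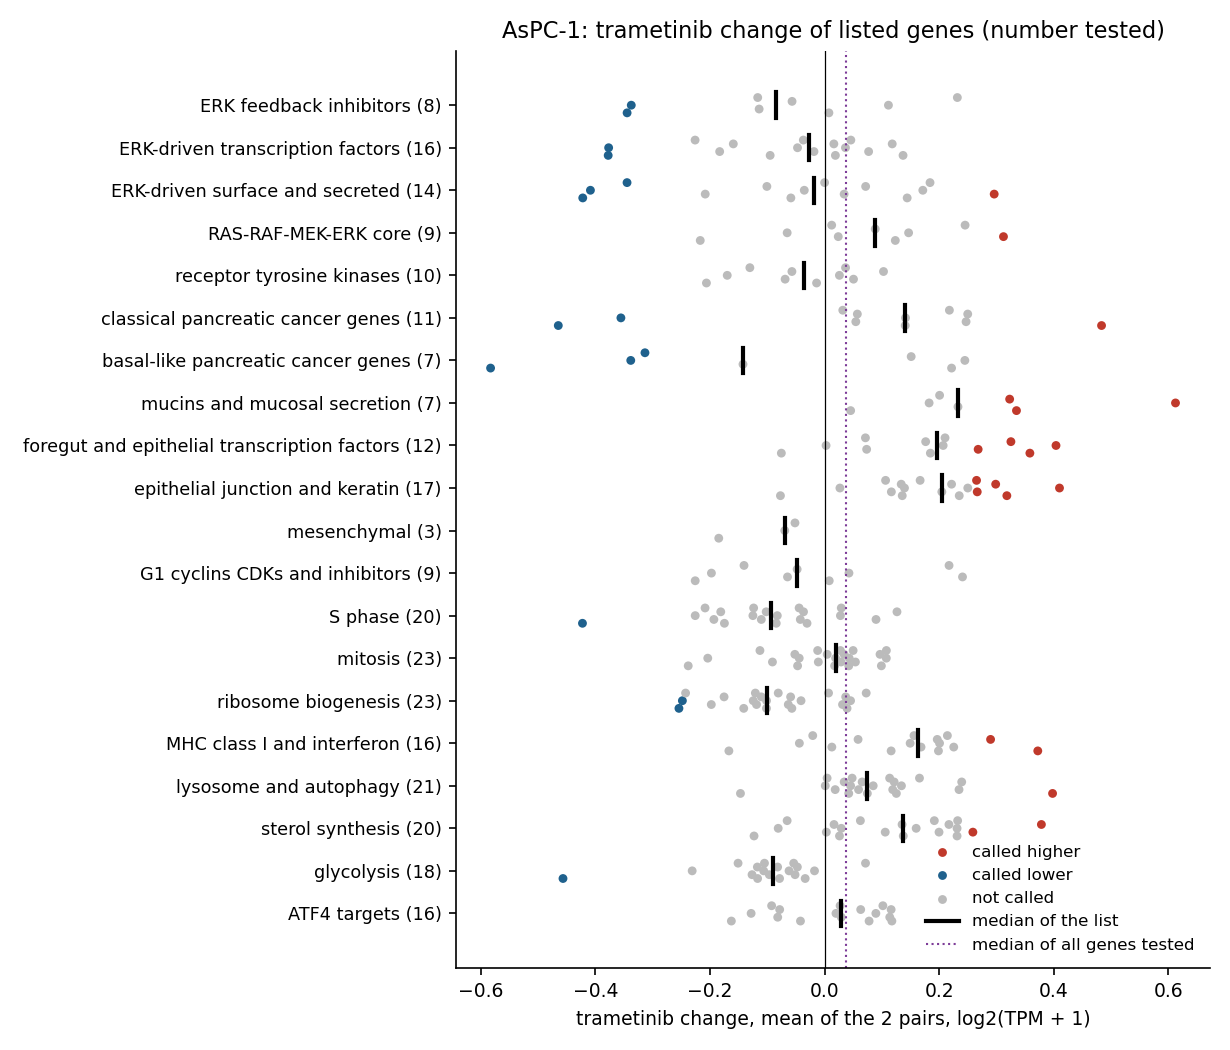
Trametinib change of each tested gene (mean of the 2 AsPC-1 pairs, log2(TPM + 1)) in 20 gene lists, with the number of tested genes in brackets. Points are genes, red or blue where limma called them higher or lower. Black bars are list medians and the dotted line is the median of all genes tested (0.04). Mucins, foregut and epithelial factors and junction genes lie mostly to the right of it. S phase, ribosome biogenesis and glycolysis genes lie mostly to the left.

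Fewer genes were called in PANC-1 at the same dose. Of the 5906 genes that averaged 10 TPM or more in both lines, limma called 38 higher (0.643%) and 20 lower (0.339%) in PANC-1, 58 in all (0.982%), and 0 in a fit to all 19122 genes (627 higher and 545 lower at an unadjusted p under 0.05). DUSP6 was at 18.6 TPM with vehicle, 17.5 TPM with roseoflavin, 14.0 TPM with trametinib and 12.6 TPM with both, a fall of 0.42 (limma adjusted p = 4.345e-07). EGR1 fell by 0.28 and SPRY4 by 0.23 in PANC-1. The difference in the change of DUSP6 between the lines, PANC-1 minus AsPC-1, was -0.07 (SE 0.081, limma adjusted p = 0.707), which does not show that they respond alike.

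Only 6 genes were called in both lines, which is 2.49% of the 241 AsPC-1 calls tested there and 10.3% of the 58 PANC-1 calls. DUSP6, EGR1, SPRY4 and the secreted lectin-like CLEC3B were lower in both and CLDN3 was higher in both. Exons of CLEC3B overlap EXOSC7 on the same strand, so their reads may not be separate. LGALS1 went in opposite directions, falling in AsPC-1 and rising by 0.14 in PANC-1, where it stood at 1280 to 1544 TPM. Among all genes called higher in AsPC-1, the median change in PANC-1 was 0.0059, and among those called lower it was -0.014, against 0.012 for all genes tested in both. Many could not be compared: only 157 of the 263 higher calls (59.7%) had 10 TPM in PANC-1, against 88.0% of all 6710 genes, and 55 (20.9%) were under 1 TPM there, against 4.16%. MUC13, PHGR1, CEACAM5, CXCL5, ALDH1A1 and TM4SF20 were among those near 0 in PANC-1, with at most 0.182 TPM.

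The difference between the lines was tested on all 8 libraries. The change differed for 22 of 5906 genes (0.373%), 10 with a higher value in PANC-1 (0.169%) and 12 with a higher value in AsPC-1 (0.203%). AGR2 was among them although both lines express it: it stood at 86.7 to 96.1 TPM in PANC-1, and its change there was -0.01, which gives a difference of -0.50 (SE 0.077, limma adjusted p = 0.0149). LGALS1 differed by 0.65 (SE 0.077, limma adjusted p = 0.00174). IGFBP6, an inhibitor of insulin-like growth factors, differed by 0.53, and the membrane protein EMP1 by -0.53 (both limma adjusted p = 0.0213). In PANC-1, IGFBP6 had 9.10 and 10.5 TPM without trametinib and 10.7 and 11.2 TPM with it. It averaged under 10 TPM without trametinib there and entered this test only through the PANC-1 trametinib libraries. MUC1, IFIT3, DKK1 and ENO2 of the lists were also called. Leaving out 1 library moved the count between 0 and 732 for a higher change in PANC-1 and between 0 and 550 for a higher change in AsPC-1, so the number of such genes is poorly fixed.

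**Figure D4:**
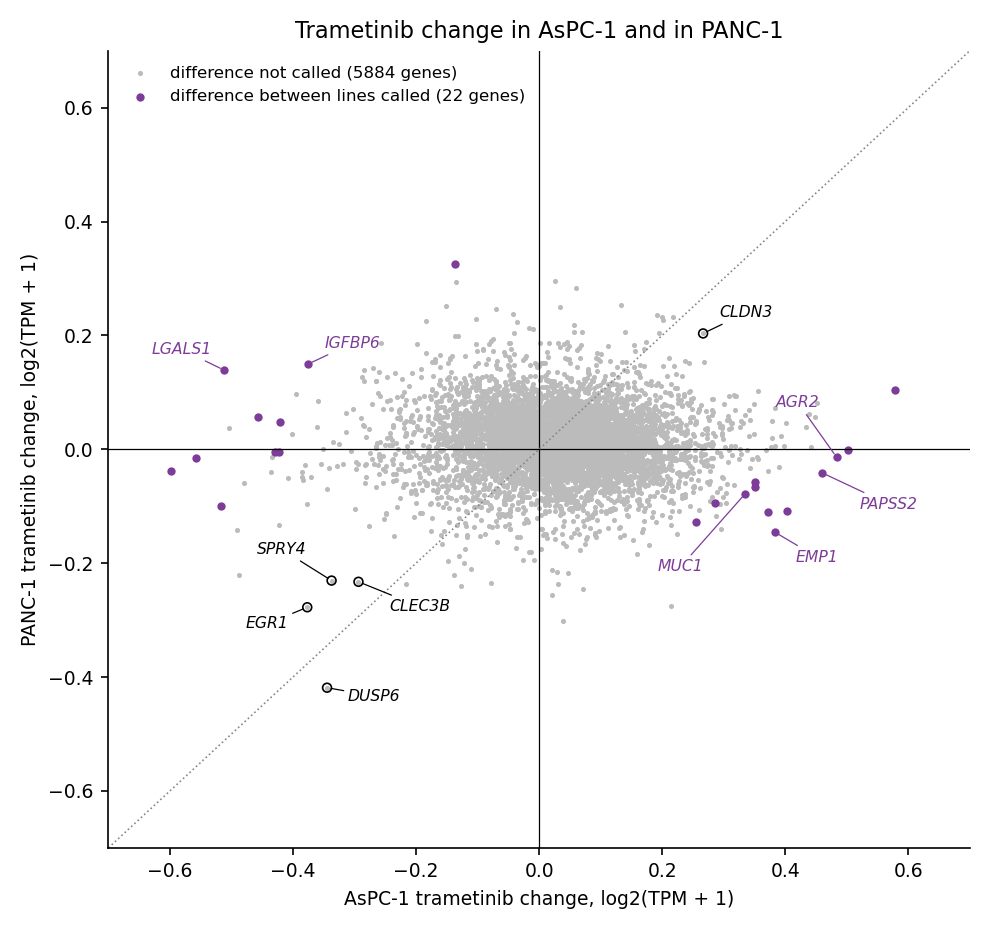
Trametinib change (log2(TPM + 1), mean of 2 pairs) in AsPC-1 on the horizontal and PANC-1 on the vertical axis for 5906 genes with at least 10 TPM in both lines. Purple points are the 22 genes whose change differed between the lines, rings mark the 5 genes called with the same direction in both, and the dotted diagonal marks equal change; DUSP6, EGR1 and SPRY4 lie near it and AGR2 lies near the line of no change in PANC-1 and LGALS1 beyond it.

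At the limits of the selection, HSD17B2 had a mean of 10.0 TPM and was kept. ATP6V1H was kept with changes of 8.28e-05 and 0.12, and SFXN1 was left out with changes of 5.73e-05 and -0.11.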

How the data were processed

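Total RNA from 8 cultures was purified on columns and sequenced from stranded, polyA-selected libraries, per the labels' protocols. STAR 2.7.3a, HTSeq 2.0.2 and hg38 are named in the submitters' processing notes, and the annotation and strand setting are not given in the sources used here. The authors deposited 1 table of TPM for all 8 libraries, with named columns for line and treatment, per the file headers. Values were analysed as log2(TPM + 1), which understates the change of low genes. Samples were grouped by their labels.

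The change was estimated by lmFit and eBayes with a trend (limma 3.58.1, R 4.3.3), with roseoflavin as an additive term and 1 residual degree of freedom for each line, and over 8 libraries with 2 for the difference between lines. P-values were adjusted by Benjamini-Hochberg over 6710 (AsPC-1) or 5906 genes. On simulated data for the AsPC-1 change over 6710 genes, 38% of genes changed by 0.25 and 100% of those changed by 0.5 were recovered. In these data 7 unchanged genes were called. The noise was drawn independently with the same SD for every gene and no trend with GC content. It was thus simpler than the real spread, and these shares need not hold for the deposited values.

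Genes were named as the 12 with the largest rise and fall ranked by their lesser pair change, the 10 of smallest p in each direction, DUSP6, MUC13 and AGR2, members of the lists, the 5 genes first in the difference between lines and those at the limits of the selection; others named were chosen after their values were seen. Some genes that this rule names are not reported here, though the counts include them. The members and lists were chosen with earlier results of these data known. Of 20 lists, each is described by counts and medians, with no set test. Coordinates, GC content and overlaps are from GENCODE release 29 on GRCh38, found for 6696 genes, and promoters are from RefSeq, matched by symbol. With roseoflavin as an additive term, p-values rest on how far the trametinib changes without and with roseoflavin disagree, a spread that limma shares among genes. This disagreement can hold an interaction of the drugs as well as noise, and the fits cannot separate them. No p-value measures a spread between repeats of a condition. Alternatives were other pseudocounts, filters, scalings, fits and leaving out each library; the GC and length correction was added after the data were seen. Figures were drawn with matplotlib 3.10.9.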

Additional observations from a re-analysis of the deposited data

Results flagged for a closer look

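The test of the difference itself flagged 22 genes whose response to trametinib was not the same in AsPC-1 and PANC-1, with limma on 8 libraries and an adjusted p under 0.05 over 5906 genes. The clearest by p was LGALS1, with a difference, PANC-1 minus AsPC-1, of 0.65; it was lower in both AsPC-1 pairs and higher in both PANC-1 pairs. IGFBP6 differed by 0.53 and was lower in AsPC-1 in each pair. It passed the level filter in PANC-1 only through the trametinib libraries. AGR2 differed by -0.50 and EMP1 by -0.53, both higher in AsPC-1 in each pair. IGFBP6 and EMP1 were low in PANC-1, at 9.10 to 11.2 TPM and 10.1 to 11.9 TPM, and LGALS1 and AGR2 were at 1280 to 1544 and 86.7 to 96.1 TPM. Line and culture cannot be told apart, because each line is a single series of 4 libraries.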

How the results depend on the processing

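The labels give no replicate numbers, so no fit with a replicate block was made, and libraries were paired by roseoflavin only. The 59 called genes named by the rule kept their direction under every alternative run, and all 59 lost their call in the fit to the whole table (adjusted p 0.568 to 0.613). The fit to all 8 libraries ended 6 of the 59 calls, BOP1, CLDN3, KLF4, S100A2, TFF3 and TJP3. Of the counts for AsPC-1, higher and lower were 263 and 107 as deposited, 421 and 172 for genes averaging 1 TPM or more, 117 and 47 for 30 TPM or more, 12 and 5 without a roseoflavin term, 0 and 0 in the whole table, and 478 and 433 after the GC and length correction. Lower calls were 237 after quantile normalization and 167 after rescaling without mitochondrial genes. Leave-one-out fits gave 0 to 1 higher and 0 lower. Genes that moved the same way numbered 4767 higher and 2154 lower with at least 1 TPM, 1276 and 505 with at least 30 TPM, and 1103 and 312 when both changes had to reach 0.1, where fewer genes qualify. Those lower in both pairs were 2125 after quantile normalization, 1896 without mitochondrial genes and 2189 after the GC correction, for which the cause was not tested.

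In PANC-1 the counts were 23 higher and 8 lower with at least 30 TPM, 4 and 6 after quantile normalization, 11 higher after the GC correction, 34 lower without mitochondrial genes, and 0 and 0 in the whole table. For the difference between lines, genes with a lower change in PANC-1 were 7 with at least 30 TPM, 3 after quantile normalization and 6 without mitochondrial genes, the whole table gave 0 in both directions (704 and 1150 unadjusted), and leave-one-out fits gave 0 to 732 and 0 to 550. The list median of mitosis was -0.0124 after quantile normalization, -0.00127 without mitochondrial genes and -0.0447 after the GC correction. That of ATF4 targets was -0.00418 after quantile normalization. Of 80 list medians recomputed, these 4 changed sign, and 70 kept their sign and moved by no more than the gap between the pairs. The other 6 moved further, in the sterol synthesis, the classical, and the foregut and epithelial lists. The 1 library per condition and the unknown depth limit all of these.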

Other observations

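Some called genes lie outside the lists; the genes of this section were chosen after their values were seen. Of the 263 higher calls, 9 were UGT1A genes of chromosome 2, which encode glucuronosyltransferases of the gut and liver, with changes of 0.26 to 0.28. They share their last exons, so their values may rest on the same reads, and without them 254 higher calls are left. The aldo-keto reductase AKR1C1, a neighbour of AKR1C2 on chromosome 10, went from 27.7 and 31.9 TPM to 38.7 and 40.1 TPM; AKR1C2 rose by 0.33. Lysosomal enzymes beyond the list were also among the calls: the lipase LIPA went from 23.5 and 23.7 TPM to 30.8 and 29.9 TPM, the fucosidase FUCA1 from 44.9 and 44.6 TPM to 62.5 and 54.8 TPM, and the protease CTSS from 28.9 and 28.1 TPM to 41.2 and 37.2 TPM. The enterocyte surface protein GPA33 went from 222 and 193 TPM to 273 and 267 TPM, and FGF19, the intestinal hormone that restrains bile acid synthesis, from 86.2 and 88.6 TPM to 102 and 113 TPM. BIRC3, an inhibitor of apoptosis, went from 12.1 and 10.6 TPM to 18.3 and 14.8 TPM.

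Of the 107 lower calls, 23 (21.5%) lay within 200 kb of another lower call, and 34 of 261 placed higher calls (13.0%) lay that near another higher call. Neighbours were sought among called genes only, and the share expected over all genes was not computed, so these counts do not show clustering. Some of the neighbours overlap each other, such as the UGT1A genes, RNASE4 with ANG, and TRIM39-RPP21 with RPP21. Reads of such genes may not be separate. WFDC3 and DNTTIP1, which are 5 bp apart on chromosome 20, were both lower, with changes of -0.81 and -0.44. Other pairs on the lower side included SLCO4A1 with NTSR1, TFF3 with TFF2 and LGALS1 with GCAT. EXOSC4, BOP1, FBXL6, TONSL and RECQL4 were lower calls on chromosome 8, each within 200 kb of the next, with changes of -0.25 to -0.32. Genes between them that were not called were not looked at. Their transcripts had a GC content of 57.1% to 65.8%, against a median of 50.3% for all genes tested.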
